A study of Homo sapiens with 27 samples.

Results

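The clustered protocadherins are cell-surface adhesion proteins encoded by 3 neighbouring gene clusters, alpha, beta and gamma, on chromosome 5. The genes were chosen by symbol, as protein-coding genes named PCDHA, PCDHB, PCDHGA, PCDHGB or PCDHGC followed by a member number, with PCDHAC1 and PCDHAC2 included. The choice gave 53 genes, 15 alpha, 16 beta and 22 gamma, among the 44852 genes of the deposited tables, and all 53 had more than 1 count in sum and were tested. They were measured by bulk RNA sequencing of the human embryonic stem cell line H1, used at passages 10 to 25 and plated on matrices with the laminin isoforms LN523, LN323 or LN521 and collected at days 2, 22 and 32. Each of the 9 matrix and day groups had 3 libraries, 27 in all. The day 2 cultures were labelled undifferentiated stem cells and had received no induction medium. The day 22 and day 32 cultures, labelled photoreceptor progenitors, had passed through neural induction medium with CKI-7 and SB431542, inhibitors of casein kinase 1 and of TGF-beta receptors, and then through photoreceptor medium with BDNF, CNTF, retinoic acid and the gamma-secretase inhibitor DAPT. The paper describes LN523 and LN323 as mixed with LN521, and LN521 as used alone, whereas the labels give LN323 as the isoform used alone and as the one added to LN523 and LN521. The matrices are therefore named here by their leading isoform. Library titles number the days 0, 20 and 30. The labels do not say whether the 3 libraries of a group came from separate cultures, so p-values measure the spread between these libraries. This spread was wider than that of counting alone, with a mean chi-square per gene of 14.7 to 236 between libraries of a group. Whether it arose between cultures or in technical steps was not tested.

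Clustered protocadherins bind the same isoform on a neighbouring cell, and in the nervous system each neuron makes a small set of them, which lets sister branches of 1 cell recognise each other. In the alpha and gamma clusters each gene has its own promoter and its own large variable exon, which encodes the extracellular domain, the membrane span and part of the cytoplasmic tail, and this exon is spliced to constant exons that all genes of the cluster use. The beta genes are single-exon genes without a constant part. Promoter choice is known to depend on CTCF and cohesin, which bring a promoter next to a distant enhancer, and on DNA methylation. The C-type genes, PCDHAC1, PCDHAC2, PCDHGC3, PCDHGC4 and PCDHGC5, lie at the 3' ends of the alpha and gamma clusters and are regulated apart from the others in many neurons. In the mouse retina, gamma protocadherins are known for neuron survival and for self-avoidance of starburst amacrine dendrites.

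On GRCh38 the annotated genes lie on the plus strand of chromosome 5, alpha between 140786136 and 141012347, beta between 141051374 and 141249365 and gamma between 141330514 and 141512977. The 15 alpha genes share 3 constant exonic stretches, 140978949 to 140979007 (59 bp), 140982475 to 140982563 (89 bp) and 141009627 to 141012347 (2721 bp). The 22 gamma genes share 141494807 to 141494865 (59 bp), 141505393 to 141505481 (89 bp) and 141510947 to 141512975 (2029 bp). The part of a gene's exonic length that lay on exons of another gene of the same strand had a median of 46.6% in alpha (21.4% in PCDHA4 to 56.6% in PCDHA2) and of 43.8% in gamma (27.5% in PCDHGA6 to 64.4% in PCDHGB4), and it was 0 to 9.54% in beta. A read on a constant exon cannot be given to 1 gene. Reads on these exons were not credited to every member, since PCDHGA3 held 0 counts in 9 of the 27 libraries and at most 24, while the gamma genes together held 1262 to 8815 counts per library. In alpha, PCDHA13 held 8 to 96 counts per library and the cluster 1603 to 6551. The deposited TPM values (counts per exonic length, scaled to 1 total in every library) of a member were divided by its full exonic length, constant exons included, so TPM of alpha and gamma members is lowered against beta by a factor that is fixed per gene. Changes between libraries of 1 gene do not contain this factor. Exons of genes on the opposite strand covered 48.6% of the exonic length of PCDHA1, 43.9% of PCDHB2, 21.2% of PCDHB16 and 14.7% of PCDHB5, and the strand setting of the counting was not given in the sources used here. Stretches matched elsewhere in the locus (95% identity, 150 bp) made up 25.9% of the unshared length of PCDHB9 and 5.39% of PCDHGA6. Those of PCDHB9 matched exons of other genes, so its counts are uncertain, and those of PCDHGA6 matched no annotated exon of another gene. Matches outside the locus were not searched.

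Most promoters of the members carry a short element around the letters CGCT, and CTCF is known to bind such elements in this locus. Not every member has the element, and the letters CGCT alone do not show it. Binding of CTCF was not measured here. RefSeq promoter sequences of GRCh38.p14, from 250 bases before to 50 after the annotated start, were found for 47 of the 53 members. PCDHA3, PCDHA13, PCDHB6, PCDHB11, PCDHGA12 and PCDHGC5 had no entry. CGCT, searched on both strands, was in 46 of the 47 promoters and in 69.4% of 27305 promoters of all genes. Longer forms differed by cluster. ATGTCGCT was in 9 of 13 alpha promoters and in 0 of the 34 others, against 0.245% of all promoters. GGTGGCGCT was in 13 of 14 beta promoters, against 0.524% of all. CGCTGTT was in 13 of 20 gamma promoters, in 1 beta promoter (PCDHB3) and in 0 of the alpha promoters, against 2.29% of all. GNGNCGCT was in 19 of 20 gamma and 14 of 14 beta promoters, where the beta form contains it, and in 1 alpha promoter, against 19.7% of all. These longer forms, which all contain CGCT, were chosen after the promoters were read. TATAAA was in 6 of the 47, against 12% of all. The median position of this CGCT relative to the RefSeq start was -55 in 11 alpha, -61 in 13 beta and -60 in 18 gamma promoters in which the element was aligned. The 36 bases around CGCT are shown, 5' to 3' on the plus strand, for the genes on which the results below turn, with CGCT in capitals and all other letters in lower case. In PCDHAC2 and PCDHGB3 the narrower pattern used for the alignment was not found. The capitals there mark a CGCT of the promoter, at -158 and -64 from the start. That of PCDHGB3 lies in GNGNCGCT, the form found in 19 of 20 gamma promoters. The alpha genes are PCDHA4 (chr5:140806980-140807015), PCDHAC1 (chr5:140926221-140926256) and PCDHAC2 (chr5:140966303-140966338), which both hold CGCT without the alpha form. The beta genes are PCDHB5 (chr5:141135180-141135215) and PCDHB10 (chr5:141192300-141192335). The gamma genes are PCDHGB6 (chr5:141407925-141407960), PCDHGB4 (chr5:141387618-141387653), PCDHGC3 (chr5:141475881-141475916) and PCDHGC4 (chr5:141484953-141484988), which were higher at day 22, and PCDHGB3 (chr5:141370163-141370198), PCDHGA6 (chr5:141373836-141373871) and PCDHGA1 (chr5:141330404-141330439), which were lower.
PCDHA4: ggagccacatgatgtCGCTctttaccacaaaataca
PCDHAC1: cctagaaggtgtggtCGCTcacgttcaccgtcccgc
PCDHAC2: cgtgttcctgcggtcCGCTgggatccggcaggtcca
PCDHB5: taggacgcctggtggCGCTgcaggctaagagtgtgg
PCDHB10: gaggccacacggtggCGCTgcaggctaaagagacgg
PCDHGB6: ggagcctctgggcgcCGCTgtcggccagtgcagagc
PCDHGB4: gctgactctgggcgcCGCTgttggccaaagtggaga
PCDHGC3: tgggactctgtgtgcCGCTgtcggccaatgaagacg
PCDHGC4: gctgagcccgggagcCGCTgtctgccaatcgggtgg
PCDHGB3: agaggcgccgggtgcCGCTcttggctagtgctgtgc
PCDHGA6: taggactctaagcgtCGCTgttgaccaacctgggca
PCDHGA1: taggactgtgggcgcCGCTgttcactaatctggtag

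A library held 25620624 to 47340990 counts in total (median 39862487), and the members together held 4924 to 26315 counts per library. Even numbers made up 65.8% of the 1401 non-zero member counts, and a count of 2 occurred 36 times and a count of 1 once, so the members may hold fewer fragments than their counts. The labelled stage was checked against marker genes. The summed TPM of 6 pluripotency genes was 6365 to 7933 at day 2, 32.1 to 423 at day 22 and 9.73 to 65.6 at day 32, and that of 6 retinal progenitor genes was 2.21 to 5.62, 767 to 1903 and 680 to 2210. The sum of 6 photoreceptor progenitor genes did not rise with the label. It was 67.2 to 189 TPM at day 2, 14.2 to 83.3 at day 22 and 19.4 to 176 at day 32. At day 32 it was 41.5 to 176 TPM on LN523, 19.4 to 47.9 on LN323 and 42.9 to 149 on LN521. Of these 6 genes, 3 were higher and 1 lower at day 22 than at day 2 by the test described below. That test found 18.2% of all genes higher and 16.9% lower. The lower one was OTX2, also known in early embryonic cells, which fell from 64.9 to 187 TPM to 8.29 to 69.9 TPM. Its range at day 2 was close to that of the sum, so the day 2 sum mostly reflects OTX2. At day 22 CRX was at 1.00 to 9.90 TPM, and RCVRN and PDE6H were at most 0.388 and 1.51 TPM. LN521 replicate 1 at day 2 stood apart for the members. It held the highest TPM of its day in 42 of the 53, 79.2% against 31.9% of all genes with a value, and the summed TPM of all members was 235 there, 179 and 142 in the other LN521 libraries and 127 to 130 in the 6 libraries on LN523 and LN323. At day 22, LN521 replicate 1 held 423 summed TPM of the pluripotency genes and 663 of 10 neuron genes, the other 8 libraries at most 174 and 159. The main counts are given with and without these 2 libraries.

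The summed TPM of the 3 clusters was higher at days 22 and 32 than at day 2. By TPM the beta sum was the highest of the 3 in each group. Per length not shared with other genes, the mean gamma sum was above it on LN521 at day 2. The gamma and beta shares were 35.8% ± 2.60 and 33.9% ± 4.58 there (SD, n = 3, replicate 1 included), closer to each other than either SD. The alpha sum was 29.1, 31.4 and 61.1 TPM (lowest, median and highest of 9 libraries) at day 2, 54.7, 63.7 and 81.0 TPM at day 22 and 51.9, 66.7 and 76.3 TPM at day 32. The beta sum was 63.9, 70.3 and 98.1 TPM, then 134, 220 and 309 TPM, then 163, 239 and 263 TPM. The gamma sum was 27.8, 30.7 and 76.1 TPM, then 80.6, 105 and 123 TPM, then 71.1, 106 and 127 TPM. Beta and gamma sums of day 2 lay below all those of day 22, the alpha sums overlapped only through LN521 replicate 1 at day 2, and the sums of days 22 and 32 overlapped in each cluster. The ratio of the mean sums of day 22 and day 2 was 1.82 in alpha, 2.97 in beta and 2.75 in gamma, and that of day 32 and day 22 was 1.01, 1.03 and 0.978. Without LN521 replicate 1 at day 2, the first ratios were 2.00, 3.09 and 3.14, gamma then above beta, and the highest day 2 sums were 42.9, 85.7 and 50.4 TPM, below those of day 22 in each cluster. TPM ratios of day 22 against day 2 stood 1.17-fold above the ratios of CPM after TMM normalization, the scale of the edgeR fold changes below. In bulk samples, fewer cells of a type and less RNA per cell cannot be told apart, so none of these levels is a level per cell. The beta genes made up 56.7% ± 3.38 (SD, n = 18) of the summed TPM of the members at days 22 and 32, and 42.5% when counts were divided by the length not shared with other genes.

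**Figure D1:**
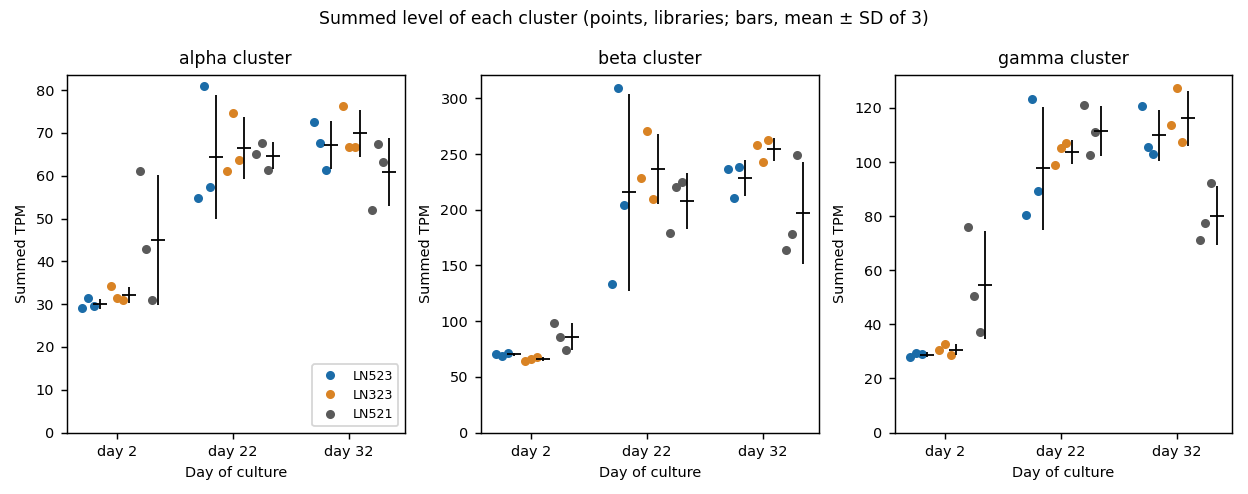
Summed TPM of the alpha, beta and gamma genes in each library (y axis) by day (x axis), coloured by matrix, with mean and SD of 3 libraries. The libraries of day 2 sit between 27.8 and 98.1 TPM, and the beta sums of days 22 and 32 between 134 and 309 TPM.

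The share of a cluster's level held by its 3 leading genes differed by cluster and day. In beta, PCDHB5, PCDHB2 and PCDHB15 together held a median of 77.5% of the cluster's TPM at day 2, 72.4% at day 22 and 73.1% at day 32. In gamma, the leading genes differed between days. PCDHGB7, PCDHGB4 and PCDHGC3 led at day 2 with 40.9%, and PCDHGB6, PCDHGC3 and PCDHGB4 led at day 22 with 69.3% and at day 32 with 72.1%. In alpha, PCDHA11, PCDHAC1 and PCDHA12 held 52.5% at day 2, and PCDHAC1, PCDHA12 and PCDHA4 held 47.5% at day 22 and 48.2% at day 32. At day 22 the mean TPM ± SD over 9 libraries was 70.3 ± 17.5 for PCDHB5 and 63.8 ± 20.4 for PCDHB2, 26.1 ± 6.88 for PCDHGB6, 26.0 ± 4.14 for PCDHGC3 and 20.0 ± 5.21 for PCDHGB4, and 10.7 ± 2.30 for PCDHAC1, 10.4 ± 2.45 for PCDHA12 and 9.06 ± 2.24 for PCDHA4. Neighbours in these orders differed by less than their SDs, except that PCDHGC3 stood above PCDHGB4 by more than either SD. Per length not shared with other genes, PCDHGB4 and PCDHA12 came first in their clusters. At the other end, PCDHB1 was at 0 in 7 libraries and at most 0.297 TPM, PCDHGA3 was at 0 in 9 and at most 0.621 TPM, and PCDHA9 was between 0.111 and 0.994 TPM. The number of genes with a mean of at least 1 TPM was 9 alpha, 10 beta and 11 gamma at day 2, 11, 13 and 7 at day 22, and 9, 13 and 7 at day 32. Over the 53 genes the rank correlation of mean TPM (Spearman's rho, over genes that share libraries and, in alpha and gamma, constant exons) was 0.86 between days 2 and 22 and 0.99 between days 22 and 32, and 0.93 to 0.99 between matrices of 1 day.

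**Figure D2:**
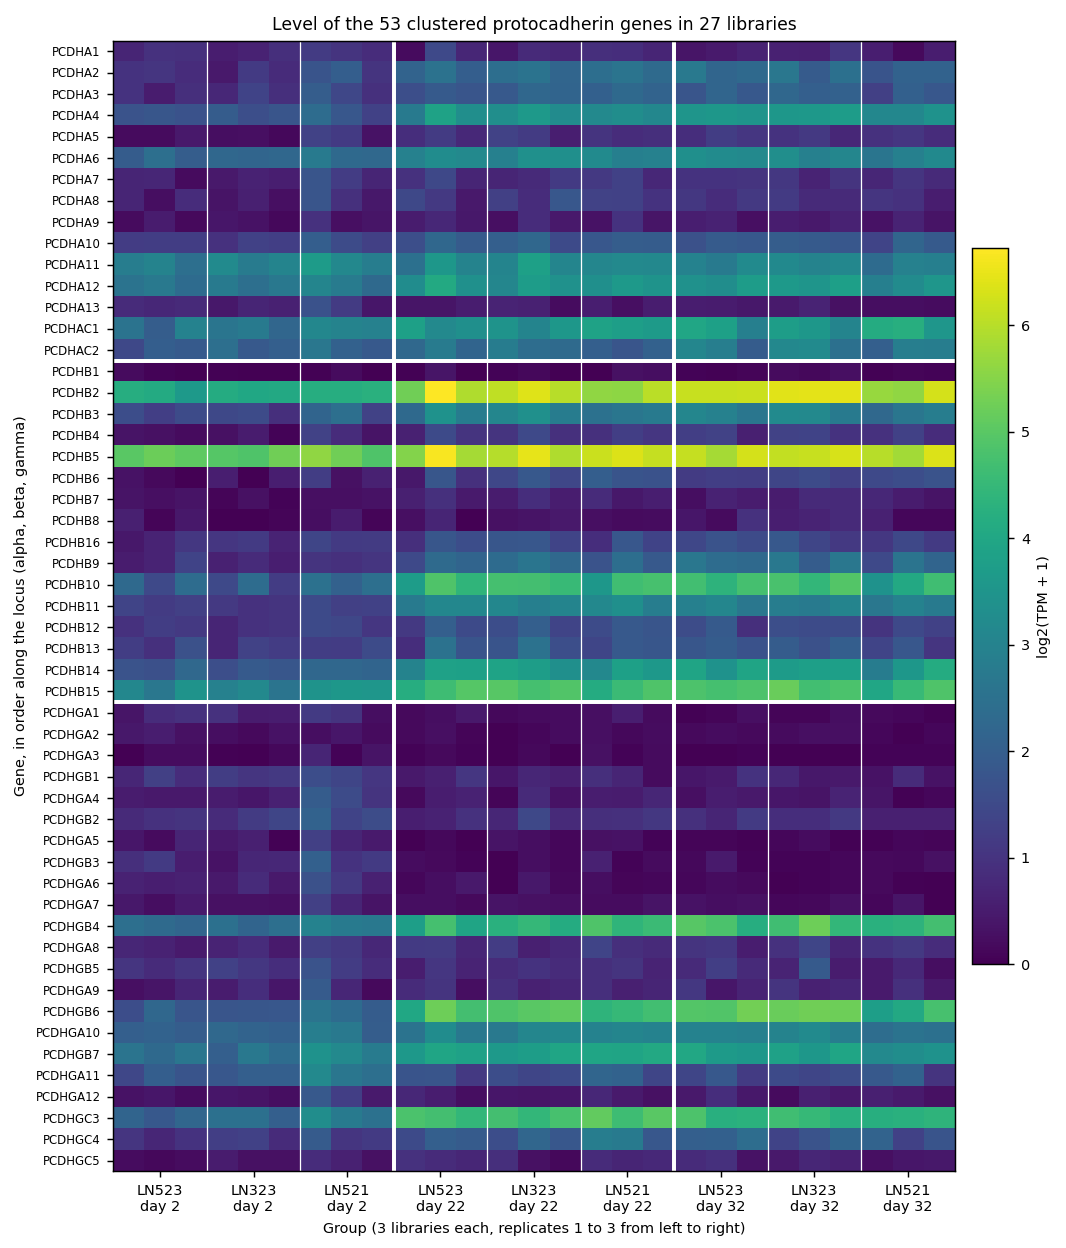
Level of each of the 53 genes (rows, in order along the locus) in each of the 27 libraries (columns, by day and matrix) as log2(TPM + 1), with white lines between clusters, groups and days. PCDHB5 and PCDHB2 are the brightest rows, and the rows from PCDHGA1 to PCDHGA7 are dark at days 22 and 32.

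Day 22 was compared with day 2 as the mean of the 3 matrices, by edgeR's quasi-likelihood test on all 27 libraries with the sequencing lane (the same as the replicate number) as a block. Called means a Benjamini-Hochberg adjusted p under 0.05 over all genes tested. Of the 53 members 34 were called, 64.2%, where 35.1% of all genes were called. Of the members 26 were higher, where 18.2% of all genes were, and 8 were lower, where 16.9% were. All genes include many of few counts. Over the 25682 genes left by the filterByExpr filter, 61.5% were called (32.2% higher and 29.3% lower), and under it 42 of the 53 members were called (79.2%), 30 higher and 12 lower. The TPM of the 9 libraries of day 2 did not overlap those of day 22 in 16 members, all of them called, where 16.4% of all genes did not overlap. The median log2 fold change was 0.71 over the members and -0.00467 over all genes tested. Without LN521 replicate 1 at day 2, 34 members were called (27 higher and 7 lower), and without LN521 replicate 1 at day 22, 36 (29 and 7).

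Beta members moved in 1 direction on the mean of the 3 matrices. Of the 16, 11 were higher and 0 lower, all 16 had a positive log2 fold change, and the median was 1.42. On single matrices 2 of the 16 were negative on LN523 (lowest -0.33), 0 on LN323 and 1 on LN521 (-0.44), and 0 were called lower. PCDHB10, PCDHB6, PCDHB11, PCDHB9 and PCDHB14 had the largest rises of those called, with the same sign in all 9 matrix and lane pairs, and each encodes a single-exon adhesion protein of the family. PCDHB10 (ENSG00000120324, 141192353 to 141195647) was at 1.30, 3.96 and 4.66 TPM (lowest, median and highest of 9) at day 2, 10.7, 24.2 and 28.2 TPM at day 22 and 9.69, 24.2 and 29.5 TPM at day 32. Each library of day 2 was below each of day 22, and LN521 replicate 1 was the lowest at both later days. The log2 fold change of day 22 against day 2 was 2.49 (SE 0.22, adjusted p = 5.99e-14). PCDHB11 was at 0.954, 1.40 and 1.86 TPM at day 2 and 5.82, 7.64 and 9.27 TPM at day 22, without overlap, and its log2 fold change was 2.23 (SE 0.22, adjusted p = 1.67e-12). PCDHB14 was at 2.06, 2.71 and 3.79 TPM and then at 7.04, 12.4 and 14.0 TPM, without overlap (log2 fold change 1.74, SE 0.20). PCDHB9, whose counts are uncertain, was at 0.429, 0.783 and 1.54 TPM and then at 1.79, 3.81 and 5.12 TPM, without overlap (log2 fold change 1.90, SE 0.28).

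PCDHB6 was low and its libraries overlapped. It was at 0, 0.264 and 1.31 TPM at day 2, with 2 libraries at 0, and at 0.358, 2.21 and 3.00 TPM at day 22, the highest of day 2 and the lowest of day 22 being replicate 1 of LN521 and of LN523. Its log2 fold change was 2.37 (SE 0.46, adjusted p = 2.48e-05), 3.18 without replicate 1 and 1.62 without replicate 2. PCDHB5 (ENSG00000113209, 141135206 to 141138615), the most abundant member at days 2 and 22 by TPM, was at 28.2, 32.2 and 48.1 TPM at day 2 and at 43.8, 69.6 and 101 TPM at day 22, and the groups overlapped through LN521 replicate 1 at day 2 and LN523 replicate 1 at day 22. Its log2 fold change was 0.80 (SE 0.14, adjusted p = 2.77e-06), the smallest of the 11 called beta genes. PCDHB2, named for its level after its values were seen, was at 11.5, 16.6 and 18.1 TPM and then at 37.2, 63.4 and 105 TPM without overlap (log2 fold change 1.73, SE 0.14), with reads of PCDHB1-AS1 on the other strand as a limit. PCDHB1, PCDHB8, PCDHB12, PCDHB13 and PCDHB16 were not called, with log2 fold changes of 0.66 to 1.13.

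**Figure D3:**
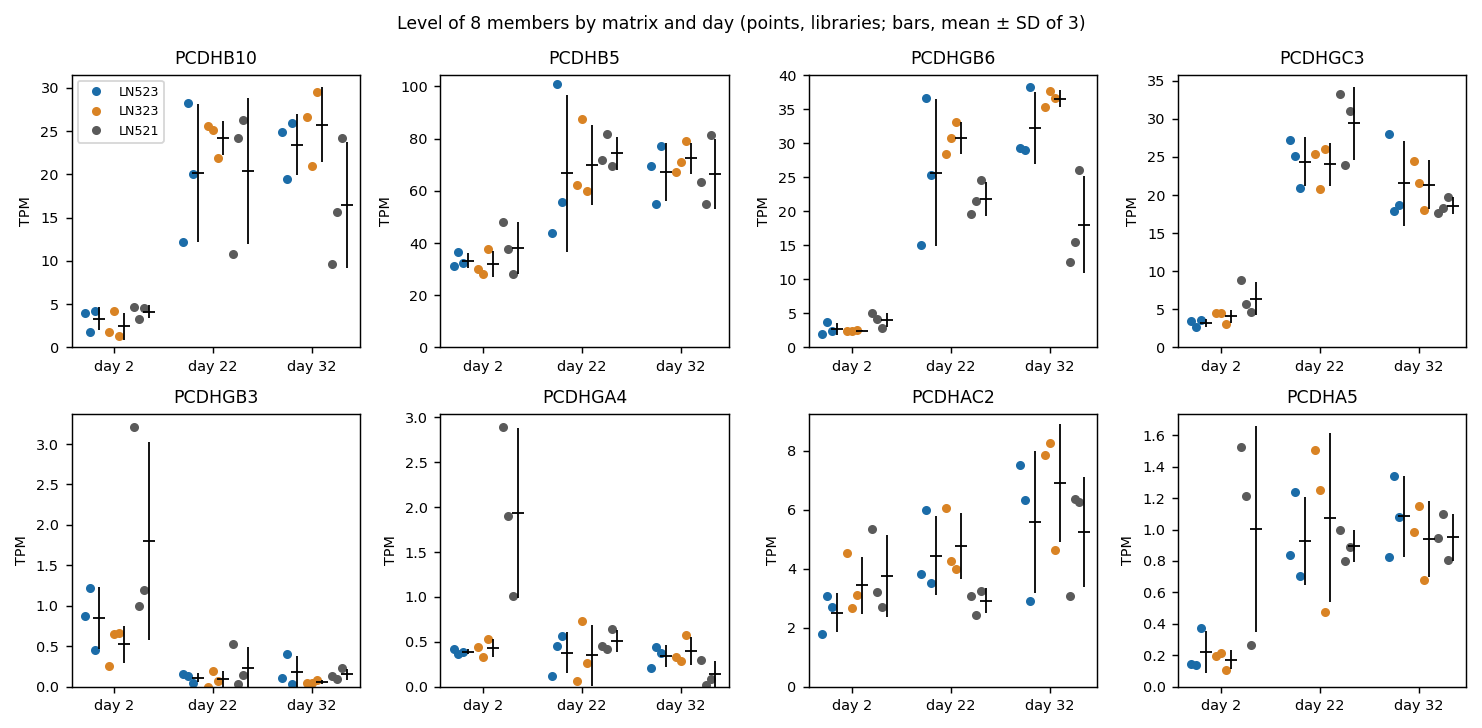
TPM (y axis) of 8 members in each library by day (x axis) and matrix (colour), with mean and SD of 3 libraries. PCDHB10, PCDHGB6 and PCDHGC3 have no day 2 library above 8.83 TPM and no day 22 library below 10.7 TPM, and PCDHGA4 and PCDHA5 are highest at day 2 in LN521 replicate 1.

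In alpha the median change was smaller than in beta. Of the 15 genes, 9 were higher, 1 was lower (PCDHA13) and 5 were not called, and the median log2 fold change was 0.71. PCDHA4 (ENSG00000204967, 140807037 to 141012347) was at 1.48, 2.39 and 4.17 TPM at day 2, 5.78, 8.86 and 13.7 TPM at day 22 and 7.61, 10.3 and 12.2 TPM at day 32. Each library of day 2 was below each of day 22 (log2 fold change 1.63, SE 0.16, adjusted p = 3.01e-12). PCDHA2 was at 0.379, 1.00 and 3.04 TPM and then at 3.06, 4.34 and 5.06 TPM, without overlap by a narrow margin set by LN521 replicate 2 at day 2 (log2 fold change 1.63, SE 0.24). PCDHA3 was at 0.427, 0.904 and 2.98 TPM and then at 2.08, 3.14 and 3.95 TPM, the overlap coming from LN521 replicate 1 at day 2 (log2 fold change 1.21, SE 0.25). PCDHA6 was at 2.85, 3.76 and 5.66 TPM and then at 6.42, 7.93 and 9.43 TPM, without overlap (log2 fold change 0.79, SE 0.18). PCDHA9, the lowest alpha gene by its mean over all libraries (PCDHA13 was lower at days 22 and 32), was at 0.111 to 0.927 TPM at day 2 and 0.203 to 0.994 TPM at day 22, and was not called (log2 fold change 0.45, SE 0.37).

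The alpha C-type genes differed in their values. PCDHAC1 was at 2.93, 5.66 and 7.67 TPM at day 2, 7.21, 10.8 and 13.8 TPM at day 22 and 6.53, 12.3 and 17.5 TPM at day 32, with a small overlap of the first 2 days (log2 fold change 0.71, SE 0.17, adjusted p = 7.30e-04). PCDHAC2, known as the isoform by which serotonergic axons keep apart from each other, was at 1.77, 3.06 and 5.34 TPM, then at 2.44, 3.82 and 6.06 TPM, then at 2.89, 6.32 and 8.26 TPM. The 3 days overlapped, and neither change was called (log2 fold change 0.09, SE 0.22, adjusted p = 1 to day 22, and 0.59, SE 0.22, adjusted p = 0.313 to day 32).

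Gamma members moved in both directions. Of the 22, 6 were higher, 7 were lower and 9 were not called, with a median log2 fold change of -0.81. Without LN521 replicate 1 at day 2 the median was -0.46, with 6 higher and 6 lower, and by limma on log2(TPM + 1), a scale that understates changes of low genes, it was -0.15. Of the 10 genes from PCDHGA1 to PCDHGA7, the 5' stretch, 0 were higher and 6 were lower, and all 10 log2 fold changes were negative (median -1.28). Of the 9 genes from PCDHGB4 to PCDHGA12, 4 were higher and 1 was lower, with 5 positive and 4 negative log2 fold changes (median 0.25). Of the 3 C-type genes, 2 were higher and 0 lower (median 1.21). The division into stretches was made after the values were seen. Under each of the 13 ways of processing tried, all 10 genes of the 5' stretch had negative log2 fold changes, and 5 to 9 of them were called lower. These ways reuse the same libraries, so their agreement is not independent evidence for the division.

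Of the rises, that of PCDHGB6 (ENSG00000253305, 141408021 to 141512975) was the largest among all members. PCDHGB6 was at 2.03, 2.53 and 5.05 TPM at day 2, 15.0, 25.4 and 36.7 TPM at day 22 and 12.6, 29.3 and 38.3 TPM at day 32. Every library of days 22 and 32 was above every library of day 2 (log2 fold change 2.87, SE 0.16, adjusted p = 2.97e-21). PCDHGC3 (ENSG00000240184, 141475947 to 141512977), known for promoting dendrite branching through AXIN1, was at 2.62, 4.57 and 8.83 TPM and then at 20.8, 25.3 and 33.2 TPM, without overlap (log2 fold change 2.35, SE 0.15, adjusted p = 4.75e-19). PCDHGB4 was at 3.50, 4.50 and 6.95 TPM and then at 12.5, 20.0 and 28.4 TPM, without overlap (log2 fold change 1.84, SE 0.16). PCDHGB7 was at 3.12, 5.25 and 9.69 TPM and then at 11.0, 14.1 and 15.7 TPM, without overlap (log2 fold change 1.09, SE 0.17). PCDHGC4, known as the isoform that neuron survival depends on in mice, was at 0.661, 1.07 and 2.79 TPM and then at 1.84, 2.78 and 6.25 TPM, with an overlap that came from LN521 replicate 1 at day 2 (log2 fold change 1.21, SE 0.28, adjusted p = 2.70e-04). PCDHGC5 was low, at 0.0998, 0.237 and 0.810 TPM and then at 0.109, 0.723 and 0.937 TPM, and was not called (log2 fold change 0.85, SE 0.41, adjusted p = 0.106). It was called higher by DESeq2, with filterByExpr and by limma on log2(TPM + 1), and on LN523 taken alone (log2 fold change 2.11, SE 0.74, adjusted p = 0.0325 by edgeR).

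The falls named by the rule were in genes of low level. PCDHGB3 (ENSG00000262209) was at 0.257, 0.869 and 3.21 TPM at day 2 and at 0, 0.128 and 0.525 TPM at day 22, from 16 to 121 counts and 0 to 26 counts per library, and the groups overlapped (log2 fold change -2.97, SE 0.51, adjusted p = 3.13e-06). PCDHGA6 was at 0.377, 0.541 and 2.15 TPM and then at 0, 0.115 and 0.376 TPM, the highest library of day 22 falling just under the lowest of day 2 (log2 fold change -2.33, SE 0.50, adjusted p = 1.11e-04). PCDHGA1 was at 0.182, 0.797 and 1.21 TPM and then at 0.101, 0.174 and 0.484 TPM, with overlap (log2 fold change -1.95, SE 0.46, adjusted p = 4.68e-04). These 3 were lower in all 9 matrix and lane pairs. LN521 replicate 1 was the highest library of day 2 for each of them, and without it the log2 fold changes were -2.76, -2.13 and -1.79, all called. The other genes called lower, PCDHGA5, PCDHGB1, PCDHGB2 and PCDHGA11, had log2 fold changes of -2.42 to -0.84.

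**Figure D4:**
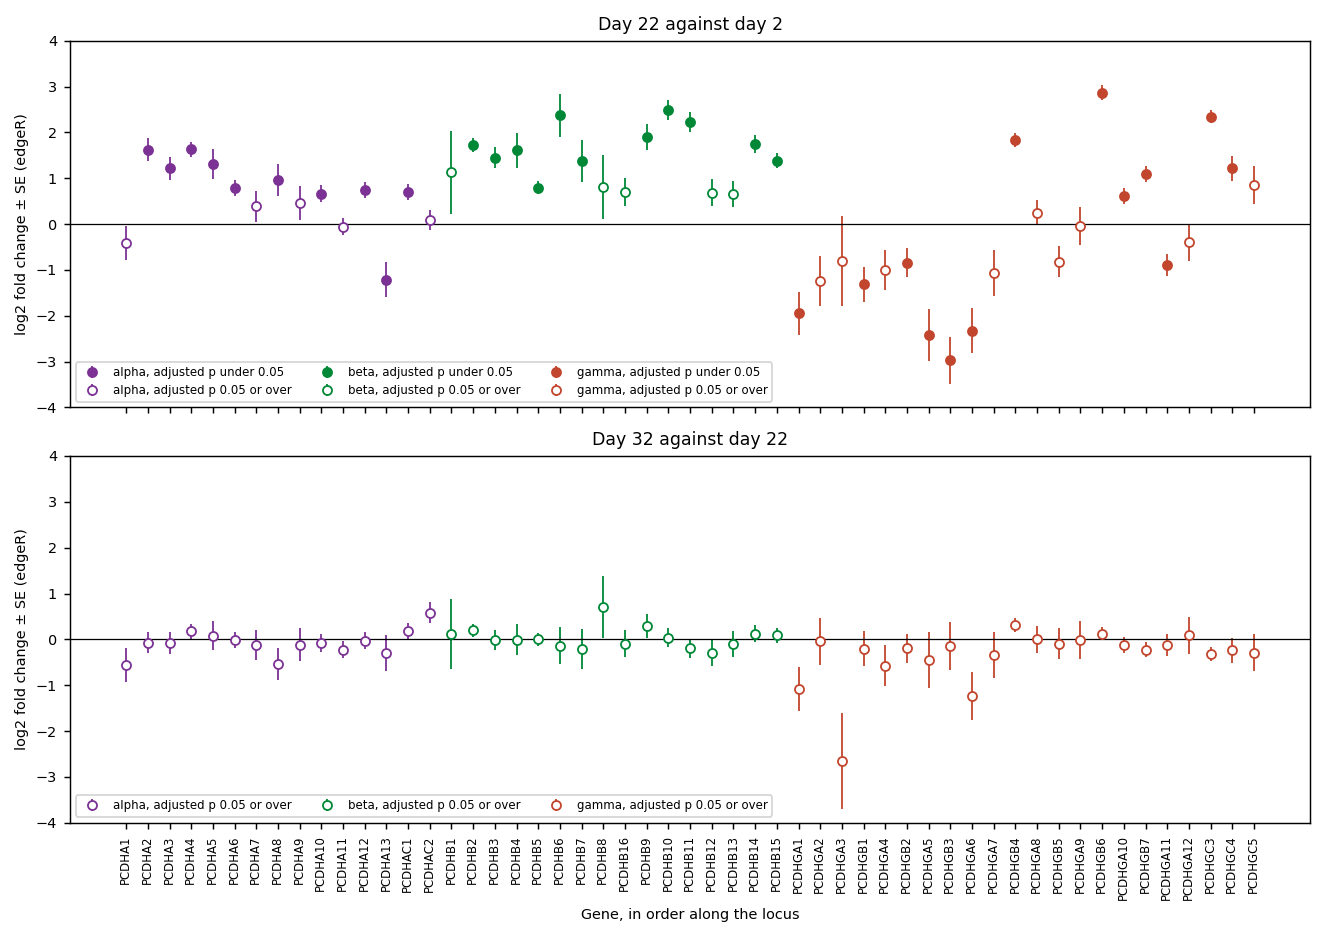
Log2 fold change by edgeR with the SE derived from its F statistic (y axis) for each member in order along the locus (x axis). Day 22 against day 2 is at the top and day 32 against day 22 at the bottom, filled where called. The 16 beta genes lie above 0 in the top panel, the 10 genes from PCDHGA1 to PCDHGA7 lie below 0, and the bottom panel has no filled point.

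Between days 22 and 32 no change of a member passed the test. By edgeR 0 of the 53 were called, where 1.33% of all genes were called, 6 had an unadjusted p under 0.05, and 0 were called by DESeq2 or under any other way of processing tried. The TPM of the 2 days overlapped in all 53, where 0.0624% of all genes did not overlap. The median log2 fold change was -0.10. Of the abundant members, PCDHB5 had a log2 fold change of -0.0008 (SE 0.14), PCDHGB6 of 0.13 (SE 0.15) and PCDHGC3 of -0.32 (SE 0.14, adjusted p = 0.551). The largest in size was that of PCDHGA3 (-2.65, SE 1.04, adjusted p = 0.374), which was at 0 in 5 of the 9 libraries of day 32 and at most 2 counts there, followed by PCDHGA6 (-1.23, SE 0.52) and PCDHGA1 (-1.09, SE 0.48). The comparisons of day 22 with day 2 and of day 32 with day 22 share the day 22 libraries.

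On each matrix taken alone, the same test called 23 members between days 2 and 22 on LN523 (21.7% of all genes), 22 on LN323 (22.7%) and 15 on LN521 (18.9%). A total of 13 members were called on all 3 matrices, where 14.9% of all genes were, and 43 had the same sign on all 3, where 56% of all genes did. With LN521 taken without replicate 1 at day 2, 14 were called on all 3 and 45 had the same sign. The 13 were PCDHA4, PCDHB2, PCDHB5, PCDHB9, PCDHB10, PCDHB11, PCDHB14, PCDHB15, PCDHGB3, PCDHGB4, PCDHGB6, PCDHGB7 and PCDHGC3, and only PCDHGB3 of them was lower. Between days 22 and 32 the test called 0 members on LN523 (0.381% of all genes), on LN323 (0.0424%) and on LN521 (0.268%), with 1, 0 and 6 at an unadjusted p under 0.05 and 0 by DESeq2. Whether the change over days differed between matrices was tested by the 4 interaction terms. It called 0 members (0.0602% of all genes), 3 had an unadjusted p under 0.05, and the lowest p, that of PCDHGB6, was 0.00557 (adjusted p = 0.497 by edgeR). DESeq2 called 0, with 12 at an unadjusted p under 0.05. The lower number on LN521 is thus not shown to be a difference between matrices. It was 16 without LN521 replicate 1 at day 2, all higher, since PCDHGB3 and PCDHGA6 were then not called on LN521, and 14 without LN521 replicate 1 at day 22. By DESeq2 it was 28.

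Matrices were compared within each day on its 9 libraries. At day 2, LN523 against LN521 called 1 member (0.624% of all genes), LN323 against LN521 called 2 (2.5%) and LN523 against LN323 called 0 (0.233%, with 0 at an unadjusted p under 0.05). PCDHGA4 was at 0.423, 0.367 and 0.383 TPM on LN523 (replicates 1 to 3), at 0.438, 0.335 and 0.534 TPM on LN323 and at 2.89, 1.90 and 1.01 TPM on LN521. Each LN521 library was above the 6 others. The log2 fold change was -2.04 for LN523 against LN521 (SE 0.56, adjusted p = 0.0458) and -1.82 for LN323 against LN521 (SE 0.56, adjusted p = 0.0455). PCDHA5 was at 0.145, 0.140 and 0.376 TPM on LN523, at 0.193, 0.217 and 0.105 TPM on LN323 and at 1.53, 1.21 and 0.267 TPM on LN521, where replicate 3 lay within the range of LN523. Its log2 fold change was -2.19 for LN323 against LN521 (SE 0.64, adjusted p = 0.0303). Most members did not pass the test. A negative log2 fold change was found in 44 of the 53 for LN523 against LN521 (60.5% of all genes), with a median of -0.45, and in 46 for LN323 against LN521 (60.5%), with a median of -0.50, where the medians of all genes were -0.19 and -0.20. Without LN521 replicate 1, both comparisons with LN521 called 0 members by edgeR (1 each at an unadjusted p under 0.05), 37 and 40 members had a negative log2 fold change (53.4% and 54% of all genes), and the medians were -0.26 and -0.28, where those of all genes were -0.06 and -0.07. DESeq2 on all 9 libraries called 2 members for LN523 against LN521, PCDHGA4 and PCDHGA11, and 0 for LN323 against LN521.

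At days 22 and 32 the comparisons of matrices called 0 members. The shares of all genes called at day 22 were 0.013% for LN523 against LN323, 0.572% for LN523 against LN521 and 0.616% for LN323 against LN521, with 1, 3 and 4 members at an unadjusted p under 0.05. At day 32 they were 0%, 0.0609% and 0.117%, with 0, 2 and 6 members. DESeq2 called 0 members at day 22 and, at day 32, PCDHGB6 in both comparisons with LN521. PCDHGB6, chosen here after its values were seen, was at 29.3, 29.0 and 38.3 TPM on LN523, at 35.4, 37.7 and 36.7 TPM on LN323 and at 12.6, 15.5 and 26.1 TPM on LN521 at day 32. Each LN521 library was below the 6 others. The log2 fold change was 0.89 for LN523 against LN521 (SE 0.22, adjusted p = 0.176 by edgeR and 0.0408 by DESeq2) and 1.06 for LN323 against LN521 (SE 0.22, adjusted p = 0.0589 and 0.00408). Without replicate 1 it was 0.69 and 0.84 (edgeR adjusted p = 0.00684 and 1.99e-04). In the same LN521 libraries the summed TPM of 10 neuron genes was 994 in replicate 1 and 240 and 253 in the others, and it was 449 to 629 on LN523 and 272 to 348 on LN323. The part of these cells in the level of PCDHGB6 was not tested.

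The CpG content of the promoters was set beside the changes, since this sequence was not used to choose the genes. The 300-base promoters held a median of 7 CpG dinucleotides in alpha, 7.5 in beta and 7 in gamma, against 14 in all promoters. The C-type genes held more, 27 in PCDHAC1, 15 in PCDHAC2, 18 in PCDHGC3 and 23 in PCDHGC4, and PCDHGB6 held 16. In gamma, the 6 genes called higher held a median of 14.5 (5 to 23), the 7 called lower 7 (4 to 12) and the 7 others 6 (2 to 14). The rank correlation of the CpG number with the log2 fold change of day 22 against day 2 was 0.57 over 20 gamma genes, -0.31 over 13 alpha genes and -0.24 over 14 beta genes, and with the TPM of day 22 it was 0.71 in gamma, 0.47 in alpha and -0.13 in beta. With the TPM of day 2 it was 0.67, 0.59 and -0.03. These are descriptions across genes that share libraries and constant exons and differ in base composition and level, and no methylation was measured.

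**Figure D5:**
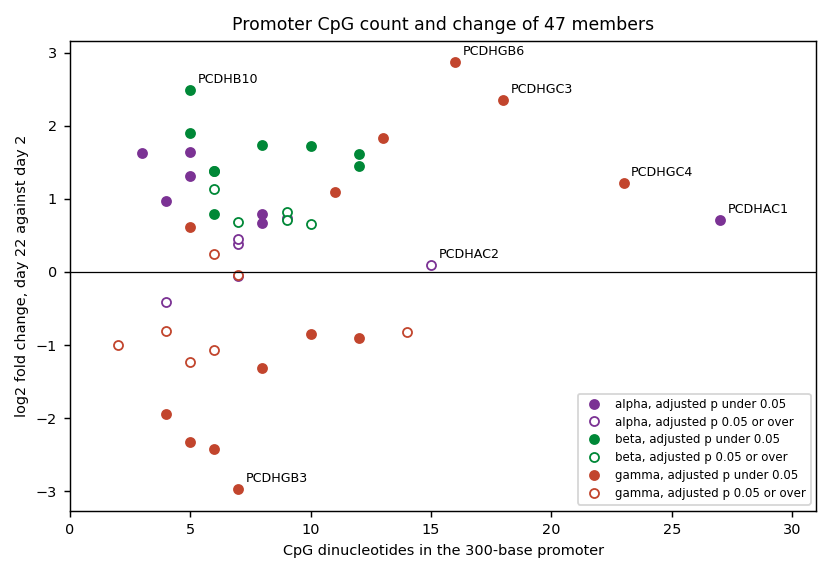
Number of CpG dinucleotides in the 300-base RefSeq promoter (x axis) and log2 fold change of day 22 against day 2 by edgeR (y axis) of 47 members, coloured by cluster and filled where called. The gamma genes spread from PCDHGB3 with 7 at the bottom to PCDHGB6, PCDHGC3 and PCDHGC4 with 16 to 23 above 0, and PCDHAC1 has the most, 27.

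Related genes were described by lists fixed by role. Between days 2 and 22 the test called 35.1% of all genes, 18.2% higher and 16.9% lower. Among the genes left by filterByExpr it called 61.5%. Between days 22 and 32 it called 1.33% of all genes. Whether a list differed from these shares was not tested. Of 22 non-clustered protocadherins and their relatives, which also mediate adhesion between cells, 13 were higher at day 22 than at day 2, 6 lower and 3 not called, with a median log2 fold change of 1.02. PCDH9 had the largest rise (5.45, SE 0.23), followed by PCDH19 (3.84, SE 0.27), and PCDH1 the largest fall (-3.89, SE 0.19). Between days 22 and 32, 2 of the 22 were higher, the large cadherin FAT4 (0.85, SE 0.21) and the photoreceptor cadherin CDHR1 (2.28, SE 0.35), and 0 were lower. Of 22 chromatin regulators known at the clustered locus, 9 were higher and 10 lower at day 22, with a median of 0.04. The DNA methyltransferase DNMT3B had the largest fall, from 2759 to 3843 TPM at day 2 to 42.1 to 205 TPM at day 22 (-5.83, SE 0.19), and TET2, which oxidises methylated cytosine, the largest rise (3.42, SE 0.14). CTCF was at 129 to 156 TPM and then at 76.2 to 137 TPM (-0.78, SE 0.12), and SMCHD1, known to silence clustered protocadherins, had a log2 fold change of 0.44 (SE 0.11). Of 16 cytoplasmic partners and proteases, 8 were higher and 4 lower, with a median of 0.26. They included MARCKS (1.07, SE 0.12) and PTK2B, a kinase that the constant parts inhibit (1.02, SE 0.17), and the receptor kinase RET, a known partner, was lower (-3.69, SE 0.38).

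Markers of other cell types moved between the same days. The shares of all genes called were again 35.1% for day 22 against day 2 and 1.33% for day 32 against day 22. The pigment epithelium genes were higher in 5 of 5 from day 2 to day 22, with summed TPM of 102 to 210 and then 778 to 2389, the mesenchyme genes in 4 of 5 (92.4 to 248 and then 551 to 1032), the epidermis genes in 4 of 5 (medians of 1.02 and then 42.5) and the lens genes in 2 of 5, with 1 lower (16.7 to 26.7 and then 13.1 to 55.9). Of 10 neuron genes 4 were higher and 3 lower at day 22 (110 to 155 and then 93.9 to 663 TPM), and 8 were higher at day 32 (240 to 994 TPM). All 4 neural crest and glia genes that were matched were lower at day 22 (133 to 174 and then 17.0 to 48.9 TPM). SOX10, also on this list, was not matched to a gene of the data. The part of each cell type in the levels of the clustered protocadherins was not tested.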

How the data were processed

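Total RNA was depleted of ribosomal RNA (Ribo-Zero Gold, TruSeq stranded kit) and sequenced on an Illumina HiSeq instrument as read pairs of 150 bases. The authors aligned reads with STAR 2.5.2b to GRCh38 with Ensembl 79 and counted with featureCounts 1.5.1 (options not given in the sources used here), left out ribosomal and mitochondrial genes, and deposited counts per gene and TPM. Counts were tested with edgeR 4.0.16 (R 4.3.3; TMM, more than 1 count in sum, quasi-likelihood, lane as block), on 27 libraries for days and on 9 for matrices within a day. The SE given with an edgeR log2 fold change is its absolute value divided by the square root of the quasi-likelihood F. It is derived from the test and is not a standard error reported by edgeR. DESeq2 1.42.0 and limma 3.58.1 on log2(TPM + 1) were alternatives. The study's methods used lane as a covariate, and lane equals the replicate number. Deviations of same-lane libraries of 1 day had a mean correlation of 0.166 (other lanes -0.0788). All lanes were over 0.1 in 2 of 9 group pairs, LN323 with LN523 at day 22 (0.617) and day 32 (0.707), and the same pair had -0.397 at day 2. Between days the mean was 0.0293 (other lanes -0.0153), and all lanes were over 0.1 in 0 of 27 group pairs. The 9 matrix and lane pairs across days are thus not shown to be matched cultures. Exons came from GENCODE 44, which held 43052 of 44852 gene IDs. Up to 5 rises per cluster and the falls were named by size among genes called, with a group mean of at least 1 CPM and 1 sign in all 9 matrix and lane pairs, then C-type genes, genes called between matrices, and the highest and lowest gene of each cluster. Members and lists were chosen with earlier results of these data known. Scripts were tested on simulated data, with 100 genes changed 2-fold and 100 changed 4-fold. For day 22 against day 2, 80% and 99% of these were recovered, and 70 unchanged genes were also called, among 43050 genes. For LN523 against LN521 at day 32, 28% and 85% were recovered and 26 unchanged genes called, among 36848. In both comparisons the unchanged genes were a larger part of the genes called than the threshold on the adjusted p allows for. The threshold thus did not hold its error rate in this simulation. Genes called between days or between matrices can include more unchanged ones than it states. A lack of calls between matrices does not exclude 2-fold changes.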

Additional observations from a re-analysis of the deposited data

How the results depend on the processing

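The number of members called between days 2 and 22 over the matrices (34) was 29 to 42 under the alternatives, and between days 22 and 32 it was 0 under each. For LN521 alone (15) it was 28 by DESeq2, 24 with filterByExpr, 27 by limma on log2(TPM + 1) and 24 with only the groups compared. For LN523 alone (23) it was 13 to 18 with 1 replicate left out, the lowest without replicate 2. At day 2, LN523 against LN521 (1) gave 2 by DESeq2, 0 with filterByExpr, limma at either pseudocount (1 or 0.1), all 27 libraries or without LN521 replicate 1, and 0 to 5 with 1 replicate left out. LN323 against LN521 (2) gave 0 by DESeq2, filterByExpr, limma, all 27 libraries or without LN521 replicate 1, and 0 to 3 with 1 replicate left out. Without the replicate block, LN523 against LN521 at day 2 gave 3, and day 22 against day 2 gave 34. For LN523 against LN521 at day 22, for LN523 and LN323 against LN521 at day 32 and for the interaction, leaving out 1 replicate gave 0 to 1, and DESeq2 gave 1 in each of the day 32 comparisons with LN521. The beta share was 56.7% by TPM and 42.5% per unshared length. The sign of 2 members that were not called turned between days 2 and 22, PCDHA11 under 6 of 12 alternatives and PCDHGA9 under 7. The cause of these shifts was not tested. Leaving out LN521 replicate 1 at day 2 or day 22 was chosen after the data were seen. Members of few counts limit what can be seen, and constant exons and the unknown counting options limit alpha and gamma levels.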
